A study of Homo sapiens with 8 samples.

Results

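The genes described here make and recycle arginine through the urea cycle, and they were read on 8 Affymetrix arrays of HEK293T cells, an established line of human embryonic kidney origin with SV40 large T antigen. They were chosen by gene symbol from a list of 9, namely NAGS, CPS1, OTC, ASS1, ASL, ARG1, ARG2, OAT and SLC25A15, and a symbol with several transcript clusters was to be read by the cluster with the highest mean. Transcript clusters are the array's sets of probes for a transcript. Of the 9 symbols, 6 had a named cluster, 1 each, so the highest-mean step decided nothing. CPS1, ARG1 and ARG2 were not analysed here. The whole table holds 53617 clusters with values.

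The 8 arrays fall into 7 groups, 6 of them with 1 array. Cells with a lentiviral shRNA gave 3 arrays, 1 from a clone with a control shRNA (shControl) and 2 from clones with different shRNAs against TET1 (shTET1#1 and shTET1#2), so each is 1 clone. The other 5 arrays came from cells transfected with an empty vector or with a plasmid for TET1-CD, mTET1-CD, TET1-FL or mTET1-FL, and sorted by fluorescence 3 days later. CD is the catalytic domain of TET1, FL is the full-length protein, and m marks the catalytically mutant form. All cells were HEK293T with their own TET1 gene, and the labels name no separate cultures or batches, so p-values measure only the spread between these arrays.

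In the urea cycle, ammonia and bicarbonate are joined to ornithine, and the nitrogen of aspartate is added to form arginine, which is split again into urea and ornithine. The full cycle runs in liver. Other cells, kidney above all, keep the ASS1 and ASL steps to make arginine from citrulline, and use ornithine for polyamines and proline. TET1 is a dioxygenase that oxidises 5-methylcytosine, the methylated base found mostly at CG dinucleotides.

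Because of that substrate, the bases before the gene starts are shown first, for the 2 genes that the results turn on and for OTC, the liver enzyme. Each is the 250 bases before the RefSeq start in GRCh38.p14, on the plus strand, with CG dinucleotides in capitals. NAGS is chr17:44004372-44004621, OTC is chrX:38352354-38352603, and ASS1 is chr9:130444457-130444706, before the first of its 2 RefSeq starts.
NAGS: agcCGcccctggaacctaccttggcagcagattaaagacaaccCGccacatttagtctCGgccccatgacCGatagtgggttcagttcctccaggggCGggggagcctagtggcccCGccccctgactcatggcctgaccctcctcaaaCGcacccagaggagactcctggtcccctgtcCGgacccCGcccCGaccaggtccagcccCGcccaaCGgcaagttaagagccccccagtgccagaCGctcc
OTC: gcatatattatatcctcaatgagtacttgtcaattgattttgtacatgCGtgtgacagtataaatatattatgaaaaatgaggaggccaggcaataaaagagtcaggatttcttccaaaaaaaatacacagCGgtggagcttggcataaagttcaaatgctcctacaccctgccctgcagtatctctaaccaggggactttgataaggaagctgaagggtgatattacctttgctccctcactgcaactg
ASS1: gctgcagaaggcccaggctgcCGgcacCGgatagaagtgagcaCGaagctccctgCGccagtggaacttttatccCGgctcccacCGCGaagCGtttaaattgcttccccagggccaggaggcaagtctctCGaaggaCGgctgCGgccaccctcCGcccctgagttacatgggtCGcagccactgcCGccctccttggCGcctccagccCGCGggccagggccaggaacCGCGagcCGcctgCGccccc
The NAGS window held 13 CG dinucleotides, the OTC window 2 and the ASS1 window 21. The median of 35116 such windows was 11, and 53.4%, 14.7% and 69.8% of windows held fewer than these genes.

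The remaining genes had CG-rich windows. ASL held 22 CG dinucleotides, OAT 27 and SLC25A15 35, with 72.0%, 82.3% and 94.2% of windows holding fewer. A window before the second ASS1 start held 24. The letters GGGCGG, searched on both strands, occurred 5 times before NAGS, 2 times before each ASS1 start, 4 times before ASL, OAT and SLC25A15 and 0 times before OTC, and 42.6% of all windows hold them. CACGTG, which reads the same on both strands and overlaps a CG, occurred 1 time, before the second ASS1 start, and 6.34% of windows hold it. TATAAA on either strand occurred 1 time before OTC and in 10.7% of all windows. Methylation of these windows was not analysed here.

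**Figure D1:**
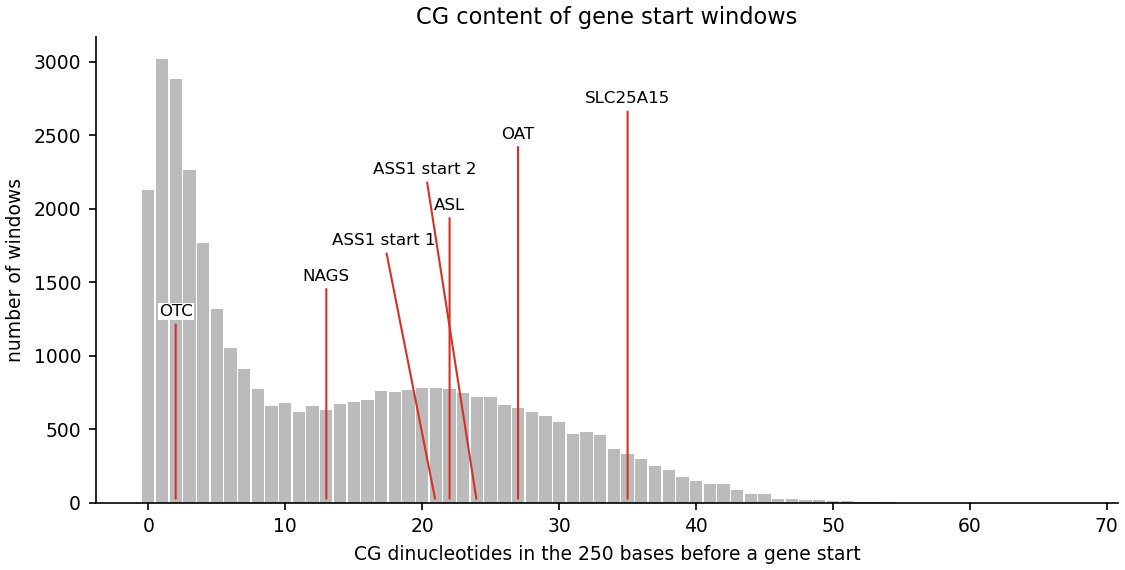
Number of CG dinucleotides in the 250 bases before a gene start (x axis) against the number of RefSeq windows with that count (grey bars, y axis), with the windows of 6 genes marked in red. OTC lies at 2 and the others lie between 13 and 35.

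The median log2 signal of an array was 5.47 to 5.55. The 2 clusters that read TET1 itself were higher in the 4 TET1 plasmid arrays, at 10.42 to 12.47 and 11.80 to 12.10, than in the vector array, at 9.51 and 5.86. Against 9.29 and 5.71 in the control clone, the same clusters stood lower in shTET1#1, at 8.62 and 5.27. In shTET1#2 they stood at 9.14 and, above the control clone, 6.20, so "the array labelled shTET1#2" is written for that sample. The second of these clusters lay near the array medians on all arrays without a TET1 plasmid, so it read the cells' own TET1 poorly. All 8 named markers of the HEK293T line lay above the array median on every array, and 7 of 9 named liver markers lay above it on none. A filter kept the 28946 clusters that lay above the array median on at least 2 arrays, and 5 of the 6 genes passed it. RNA was pooled from many cells, so fewer cells expressing a gene and less RNA per cell cannot be told apart.

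NAGS makes N-acetylglutamate, the obligatory activator of the first urea cycle enzyme. Its signal was 7.16 with TET1-CD and 7.05 with TET1-FL, and 6.39 with mTET1-CD and 6.48 with mTET1-FL. It was 6.20 with the vector, 6.50 in shControl, 6.08 in shTET1#1 and 6.49 for the array labelled shTET1#2. The wild-type arrays were thus the highest of the 8, as for 3.23% of all clusters kept by the filter. The other 6 lay between 6.08 and 6.50 and did not reach the wild-type arrays. The array medians were 5.47 to 5.55, so NAGS was read at a low signal on most arrays.

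OTC, which joins carbamoyl phosphate to ornithine in liver mitochondria, lay between 2.48 with TET1-CD and 3.06 in shTET1#1. All 8 values were well below the array medians, where background sets the reading, so OTC failed the filter and no difference is given for it.

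ASS1 condenses citrulline with aspartate and is the rate-limiting step of arginine synthesis. Its signal was 9.24 with the vector, against 8.02 with TET1-CD, 8.03 with mTET1-CD, 8.37 with TET1-FL and 8.53 with mTET1-FL. In the shRNA cells it was 8.33 in shControl, 8.33 in shTET1#1 and 7.79 for the array labelled shTET1#2. The vector array was the highest of the 8, the array labelled shTET1#2 was the lowest, and shControl lay between the CD and the FL arrays.

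ASL splits argininosuccinate into arginine and fumarate. Its signal was 6.87 in shControl, 6.76 in shTET1#1 and 6.43 for the array labelled shTET1#2. It was 6.50 for the vector, 6.66 for TET1-CD, 6.69 for mTET1-CD, 6.54 for TET1-FL and 6.55 for mTET1-FL. The shRNA arrays covered the whole range of the transfected ones.

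OAT moves an amino group off ornithine in mitochondria, linking the cycle to proline and glutamate. Its signal was 8.73 in shControl, 8.83 in shTET1#1 and 8.93 for the array labelled shTET1#2. It was 8.45 for the vector, 8.57 for TET1-CD, 8.43 for mTET1-CD, 8.75 for TET1-FL and 8.79 for mTET1-FL. The CD and vector arrays lay below the FL and shRNA arrays.

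SLC25A15 carries ornithine and citrulline across the inner mitochondrial membrane. Its signal was 7.71 with TET1-CD, 7.79 with mTET1-CD, 7.70 with TET1-FL and 7.66 with mTET1-FL. It was 8.09 with the vector, 8.23 in shControl, 8.24 in shTET1#1 and 7.94 for the array labelled shTET1#2. The 4 TET1 plasmid arrays were the lowest of the 8 and did not overlap the others, as for 5.79% of all clusters.

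**Figure D2:**
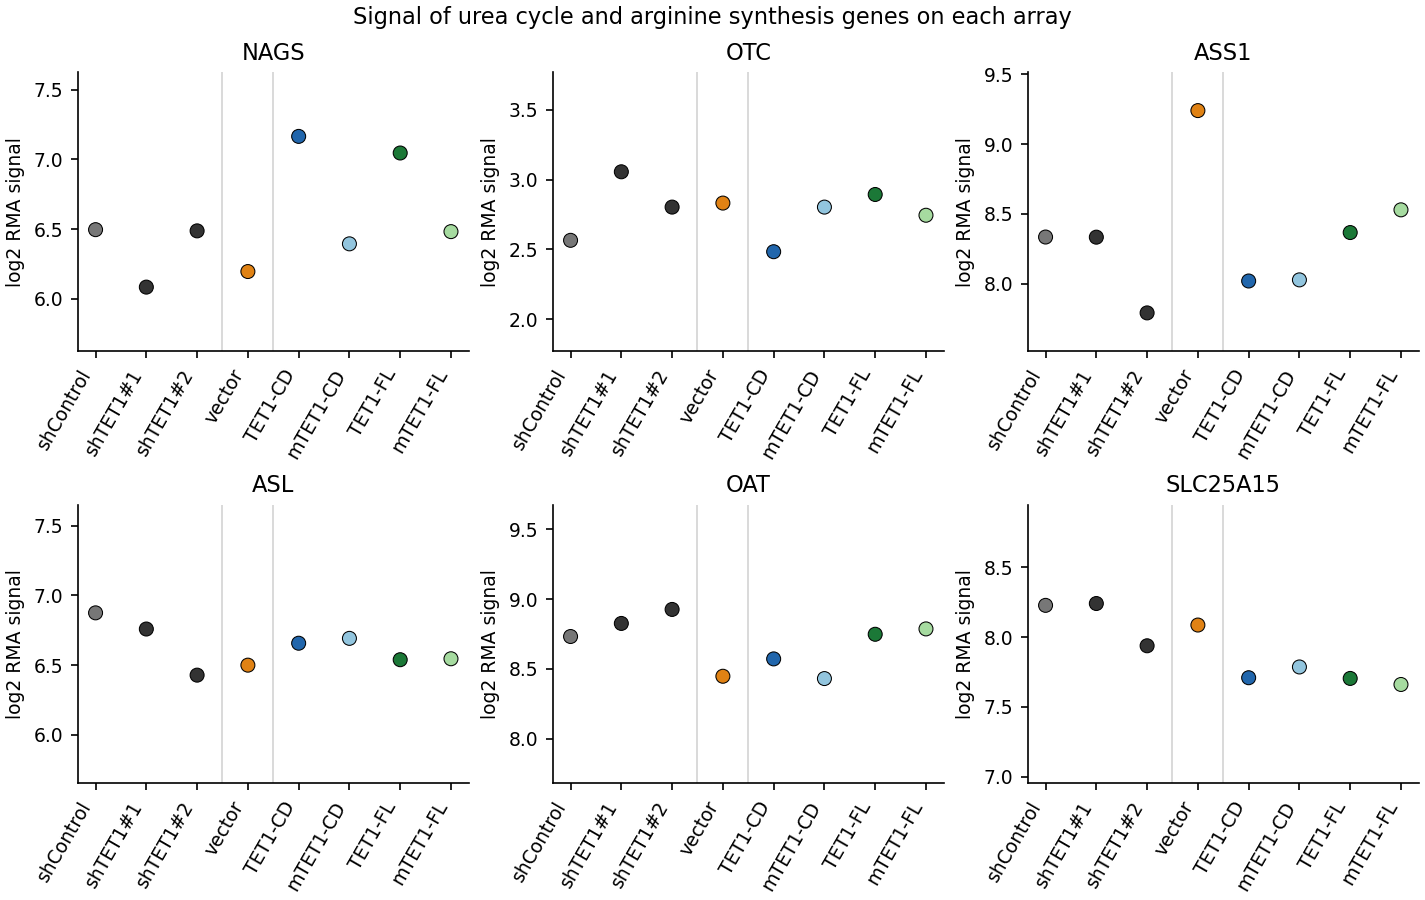
Signal of 6 genes on each of the 8 arrays (log2 RMA signal, 1 point per array, each panel spanning the same number of log2 units). The wild-type plasmid arrays stand highest for NAGS, at 7.16 and 7.05, the vector array stands highest for ASS1, at 9.24, and the 4 TET1 plasmid arrays stand lowest for SLC25A15.

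The differences below come from single arrays or from 1 limma fit over all 8 arrays and are given with its standard error. The fit had 2 residual degrees of freedom, 1 from the gap between the TET1 shRNA clones and the other from the gap between the CD and FL values of wild-type minus mutant. The genes were proposed with the plasmid difference of ASS1 and the wild-type minus mutant difference of NAGS already known, so these values are descriptions and carry no test.

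Wild-type minus mutant compares added TET1 with and without its enzyme activity, in pairs of arrays that also differed in TET1 signal. One TET1 cluster stood at 10.42 with TET1-CD against 11.05 with mTET1-CD, and at 12.22 with TET1-FL against 12.47 with mTET1-FL. The other stood at 12.10 against 12.03 and at 11.80 against 11.91, in the same order. The part of TET1 signal in the values below was not tested. NAGS differed by 0.77 with CD and 0.56 with FL, a fitted 0.67 ± 0.18 (SE), or 1.59-fold. Of the 28946 clusters, 9.88% had both wild-type arrays above both mutant arrays and 3.23% had them above all 6 other arrays. The NAGS difference lay at percentile 99.6 of all clusters. The other 4 genes lay nearer to 0. ASS1 stood at -0.085 ± 0.21, ASL at -0.021 ± 0.16, OAT at 0.051 ± 0.13 and SLC25A15 at -0.017 ± 0.16, each smaller than its standard error. The median was -0.017 over the 5 genes and 0.0027 over all clusters. None of the 28946 clusters passed an adjusted p of 0.05 in limma (0% called), and 567, or 1.96%, had an unadjusted p under 0.05.

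Both genes beside NAGS stood near 0 in this comparison. PYY, a gut peptide gene with no RefSeq gene between it and NAGS, stood at -0.061 ± 0.13 for wild-type minus mutant. TMEM101, the next gene on the other side, stood at 0.026 ± 0.13.

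The TET1 plasmids were next set against the empty vector, as the mean of the 4 plasmid arrays minus the only vector array. A difference seen only with the wild-type plasmids also enters this mean. ASS1 was lower than the vector in all 4 plasmid arrays, by 2.33-fold with TET1-CD, 2.32-fold with mTET1-CD, 1.83-fold with TET1-FL and 1.64-fold with mTET1-FL. A deficit of at least 2-fold was seen for 1.20% of clusters with TET1-CD and 1.41% with mTET1-CD. The fitted difference was -1.01 ± 0.24 (SE), and 0.349% of clusters had a value as low or lower. The pattern of all 4 plasmids below the vector held for 2 of the 5 genes, ASS1 and SLC25A15, and for 27.2% of all clusters. All 4 lay above the vector for ASL and NAGS, again against 27.2% of clusters. All 4 differences share the vector array, which was the highest of the 8 for 15.0% of clusters. With the control shRNA clone in its place, a choice made after the values were seen, ASS1 stood at -0.099.

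SLC25A15 stood at -0.37 ± 0.17 against the vector and at -0.51 against the control shRNA clone. Its 4 plasmid arrays lay below all 4 other arrays, as did those of 5.79% of clusters. NAGS stood at 0.58 ± 0.20, made up of 0.97 and 0.85 for the wild-type plasmids and 0.20 and 0.29 for the mutants, and at 0.28 against the control shRNA clone. OAT stood at 0.19 ± 0.14 and ASL at 0.11 ± 0.18, and both were below 0 against the control shRNA clone, at -0.098 and -0.27. The summed linear signal of 3 kidney proximal tubule markers was 258 to 304 in the plasmid arrays, 344 in the vector array and 306 to 435 in the shRNA arrays, and its part in the SLC25A15 values was not tested. The markers did not move together, with LRP2 at -0.57 for plasmids minus vector, AQP1 at 0.19 and CUBN, which did not pass the filter, at -0.04. Over the 5 genes the median was 0.11, against 0.0014 over all clusters. Limma called none of the 28946 clusters (0%), and 4352 had an unadjusted p under 0.05.

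**Figure D3:**
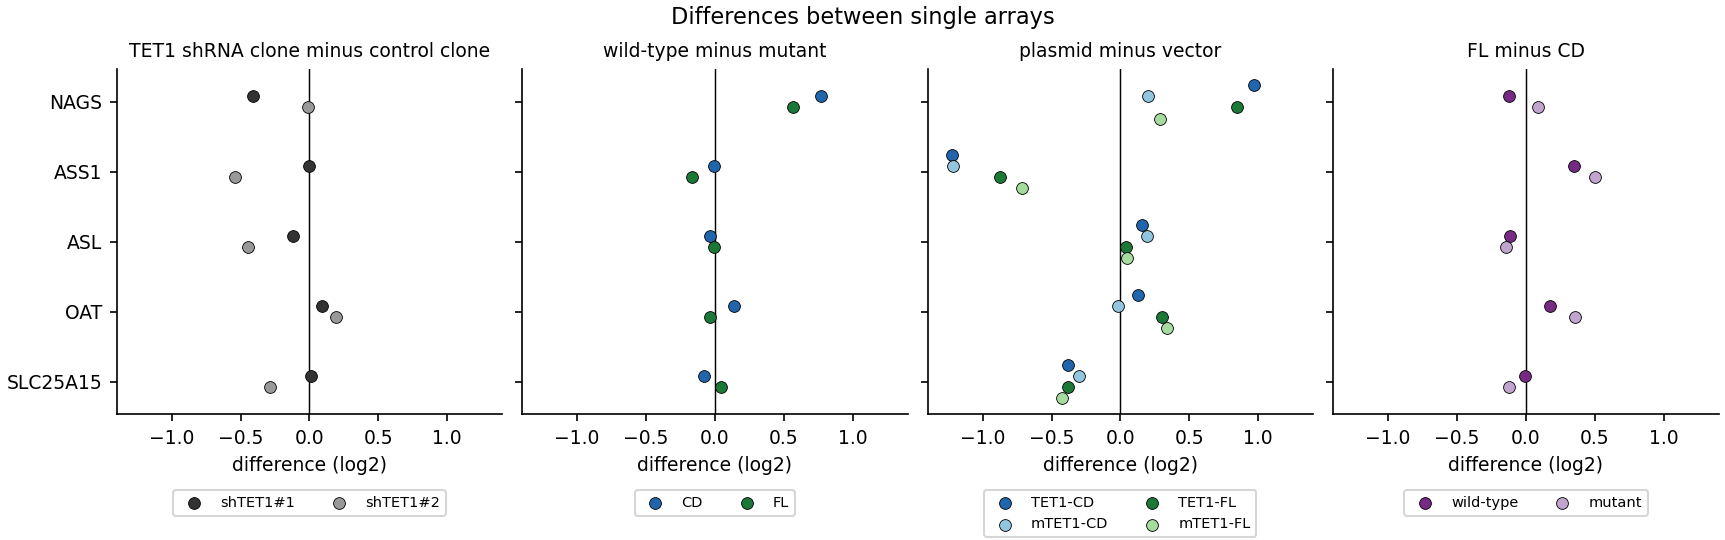
Differences between pairs of single arrays for 5 genes (log2, x axis), with 1 point per pair, in 4 panels by comparison. NAGS lies farthest from 0 for wild-type minus mutant, at 0.77 and 0.56, and ASS1 for plasmid minus vector, at -1.22 to -0.71.

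FL minus CD compares the long and short proteins, in arrays that also differed in TET1 signal. One TET1 cluster stood at 12.22 with TET1-FL and 12.47 with mTET1-FL, against 10.42 with TET1-CD and 11.05 with mTET1-CD. The other stood at 11.80 and 11.91 against 12.10 and 12.03, in the same order. The part of TET1 signal in the FL minus CD values was not tested. ASS1 was 0.35 higher with TET1-FL than with TET1-CD and 0.50 higher with mTET1-FL than with mTET1-CD, a fitted 0.42 ± 0.21 (SE). OAT was 0.18 and 0.36 higher, a fitted 0.27 ± 0.13. Both FL arrays lay above both CD arrays for these 2 genes and for 27.6% of clusters. ASL stood at -0.13 ± 0.16 and SLC25A15 at -0.065 ± 0.16, with both FL arrays below both CD arrays, as in 25.7% of clusters. NAGS stood at -0.016 ± 0.18. The median over the 5 genes was -0.016, against 0.0031 over all clusters. Limma called none (0%) for this comparison, with 3975 clusters, or 13.7%, at an unadjusted p under 0.05.

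The 2 clones with shRNAs against TET1 were compared with the control clone. TET1 itself was lower in both of its clusters in shTET1#1 but in 1 of 2 for the array labelled shTET1#2. Their mean is thus no measure of a TET1 reduction seen in both clones by both clusters. The cluster that was not lower read 5.27 to 6.20 without a TET1 plasmid, near the array medians of 5.47 to 5.55. In the other cluster the array labelled shTET1#2 stood at 9.14, against 9.29 in shControl and 8.62 in shTET1#1. NAGS stood at -0.41 in shTET1#1 and at -0.0087 for the array labelled shTET1#2. ASS1 stood at -0.0011 and -0.54, and ASL at -0.12 and -0.45, in the same order. OAT stood at 0.094 and 0.19, and SLC25A15 at 0.013 and -0.29.

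The fitted clone differences were -0.21 ± 0.22 (SE) for NAGS, -0.27 ± 0.26 for ASS1, -0.28 ± 0.19 for ASL, 0.14 ± 0.16 for OAT and -0.14 ± 0.19 for SLC25A15. Both clones lay below shControl for NAGS, ASS1 and ASL, as for 33.1% of clusters, and above it for OAT, as for 29.4%. The value of ASS1 rests on the array labelled shTET1#2, without which it is -0.0011, and that of NAGS on shTET1#1, without which it is -0.0087. ASL was -0.12 without the array labelled shTET1#2. Against the vector array in place of the control clone, ASS1 stood at -1.18, OAT at 0.43, ASL at 0.094, NAGS at 0.090 and SLC25A15 at 0.0029, the last 3 with their sign changed. Over the 5 genes the median was -0.21, against -0.010 over all clusters. Limma called 0% of clusters for the clones, with 2294 at an unadjusted p under 0.05.

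The transfected, sorted cells and the shRNA clones differ in how they were made, and the 5 arrays of the first were set against the 3 of the second. The fitted value was the mean of the vector, wild-type and mutant terms minus the mean of the control and TET1 shRNA terms. The vector array thus weighed more than each plasmid array, and the control clone more than each TET1 shRNA clone, unlike in a plain mean over arrays. SLC25A15 stood at -0.32 ± 0.12 (SE), OAT at -0.23 ± 0.10, ASL at -0.16 ± 0.12, NAGS at 0.19 ± 0.14 and ASS1 at 0.37 ± 0.16. Without shTET1#1, ASL stood at -0.079, NAGS at 0.088 and ASS1 at 0.51. Without the array labelled shTET1#2, ASL stood at -0.24, NAGS at 0.29 and ASS1 at 0.24. Leaving out a clone here was chosen after the values were seen. With the vector array alone against the control clone, NAGS turned to -0.30, ASS1 stood at 0.91, ASL at -0.37 and SLC25A15 at -0.14. None of the 5 passed limma (adjusted p = 0.191 to 0.481), while 1.86% of all clusters were called higher and 0.957% lower. The 2 sets of arrays overlapped for each of the 5, while 8.18% of all clusters had every transfected array above the shRNA arrays and 7.67% had every one below. The median was -0.16 over the 5 genes and 0.016 over all clusters.

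**Figure D4:**
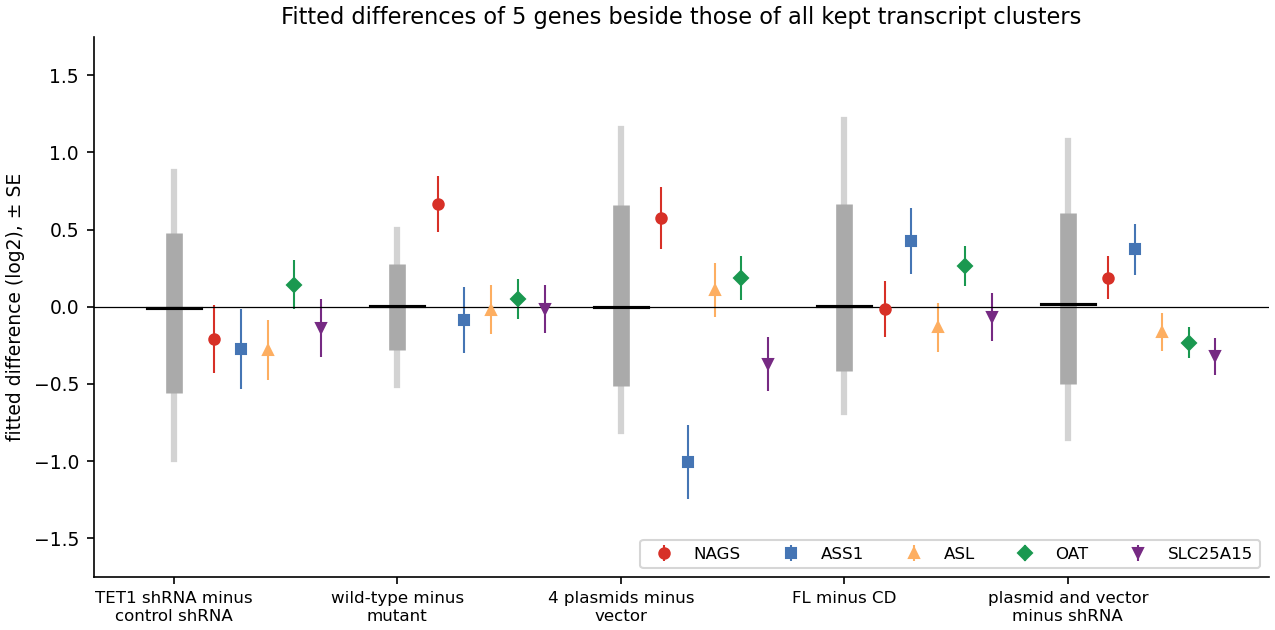
Fitted differences of 5 genes (coloured symbols, log2, bars ± SE from limma) in 5 comparisons, beside the spread of all 28946 kept clusters (thick grey bars from percentile 5 to 95, thin from 1 to 99, black line at the median). ASS1 lies outside the thin bar for plasmids minus vector and NAGS for wild-type minus mutant.

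Other genes that feed or drain the cycle were counted from lists. No gene of any of these lists passed limma in the comparisons of clones, activity, plasmid or construct, where 0% of all clusters were called. Each is named for the largest absolute difference in its list and comparison. Of 11 transporters of arginine, ornithine and aspartate, 1 was named on the array and kept, the ornithine carrier SLC25A2. It stood at 5.97 with the vector and at 5.40 to 5.64 with the plasmids, a difference of -0.42 ± 0.18 (SE).

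Of 16 genes of aspartate, glutamate and fumarate supply, 5 were kept, with 2 higher and 3 lower for plasmids minus vector and a median of -0.20. ASNS, which makes asparagine from aspartate, was 9.32 with the vector and 8.43 to 8.64 with the plasmids, against 8.19 to 8.93 in the shRNA arrays, a difference of -0.78 ± 0.30 from the vector. As with ASS1, the vector array was its highest of the 8. For clones minus control the median was 0.084, and GPT, which interconverts alanine and glutamate, stood at 0.46 ± 0.19. GLUL, glutamine synthetase, stood at -0.18 ± 0.13 for wild-type minus mutant and 0.46 ± 0.13 for FL minus CD, where the medians were -0.0018 and 0.14.

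Of 8 genes of proline and glutamate semialdehyde metabolism, 2 were kept, PYCR1 and PYCR3, which reduce pyrroline carboxylate to proline. PYCR1 was 9.41 with the vector and 8.95 to 9.22 with the plasmids, a difference of -0.31 ± 0.15. It stood at -0.083 for the clones, -0.15 for wild-type minus mutant and -0.12 for FL minus CD.

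All 14 genes of polyamine synthesis and breakdown were kept. Their medians were 0.017 (clones), 0.0099 (wild-type minus mutant), 0.13 (plasmids minus vector) and -0.018 (construct, FL minus CD). SAT1, which acetylates spermidine and spermine for breakdown, was 5.90 in shControl, 8.26 in shTET1#1 and 7.09 for the array labelled shTET1#2, a fitted 1.77 ± 0.51. With the vector and plasmids it was 8.04 to 9.16, so the control clone was the lowest array. ODC1, which turns ornithine into putrescine, was 9.86 with the vector, 10.01 to 10.54 with the plasmids and 10.64 to 10.97 in the shRNA arrays, and stood at 0.41 ± 0.19 for plasmids minus vector.

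Of 17 genes of nitric oxide, creatine and arginine methylation, 12 were kept, with medians of -0.13 in the clone comparison, -0.011 by activity, -0.047 against the vector and -0.21 by construct. The arginine methyltransferase gene PRMT6 stood at -0.53 ± 0.22 for the clones and 0.47 ± 0.20 for plasmids minus vector, and PRMT3 at -0.60 ± 0.19 for FL minus CD. For PRMT6 the 2 control arrays were the extremes of the 8, shControl highest at 9.09 and the vector lowest at 7.78. The TET1 shRNA clones read 8.77 and 8.36 and the plasmid arrays 8.03 to 8.39. NOS1, which makes nitric oxide from arginine, stood at -0.42 ± 0.12 for wild-type minus mutant, with all values between 5.26 and 6.08, near the array medians.

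Of 7 genes of carbamoyl phosphate and pyrimidine synthesis, 5 were kept. CTPS2, which makes CTP, was 7.93 in the control clone and 9.27 and 8.66 in the TET1 shRNA clones, a fitted 1.03 ± 0.28. With the vector and plasmids CTPS2 was 8.19 to 8.41, so here too the control clone was the lowest array. UMPS, which completes uridine monophosphate, stood at 0.47 ± 0.17 against the vector, at -0.50 ± 0.15 for FL minus CD and at 0.086 ± 0.15 for wild-type minus mutant. The medians were -0.12 in the clone comparison, -0.036 by activity, -0.092 against the vector and -0.34 by construct.

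Of 16 candidate regulators of the cycle, 7 were kept. SIRT5, a mitochondrial deacylase that acts on the first urea cycle enzyme, was 7.05 with the vector, 6.36 with TET1-CD, 6.45 with mTET1-CD, 6.74 with TET1-FL, 6.68 with mTET1-FL and 6.92 to 7.05 in the shRNA arrays. Its 4 plasmid arrays thus lay below the others, as did those of 5.79% of all clusters. SIRT5 stood at -0.49 ± 0.14 against the vector and 0.31 ± 0.13 for FL minus CD. MYC stood at -0.27 ± 0.27 for wild-type minus mutant and EPAS1 at -0.37 ± 0.20 for the clones. The medians were -0.049 in the clone comparison, -0.083 by activity, -0.084 against the vector and 0.050 by construct.

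**Figure D5:**
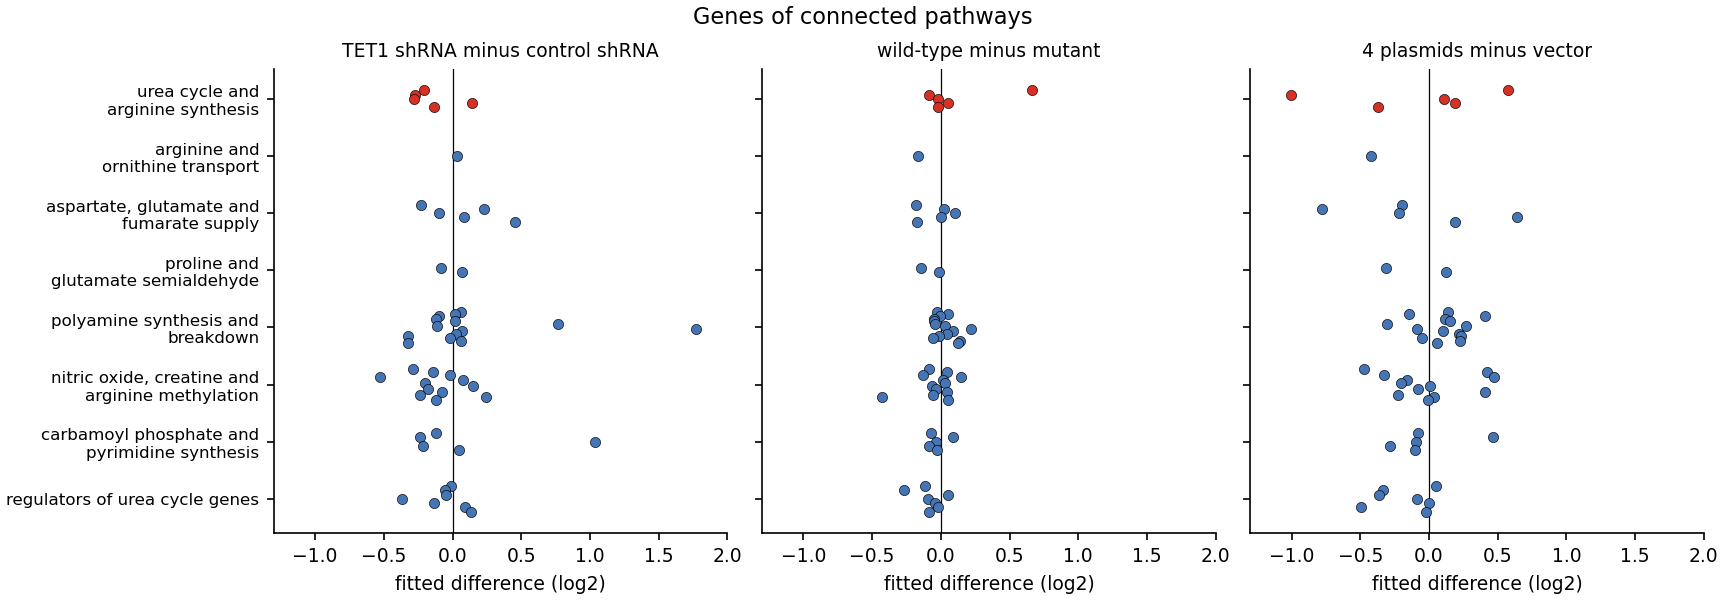
Fitted differences (log2, x axis) of the 5 kept urea cycle and arginine genes (red) and of kept genes in 7 lists of connected pathways (blue), 1 point per gene, in 3 comparisons. ASS1 at -1.01 and ASNS at -0.78 are the lowest points for plasmids minus vector, and SAT1 at 1.77 is the highest for the clones.

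The genes whose 8-array profile was most like that of ASS1, among 10796 other named symbols, were SURF4 (r = 0.98), PRELID2, GRAMD1A, TRMT2B and WDR54 (r = 0.97 each). The vector array was the highest of the 8 for each of these genes, and without it their r with ASS1 was 0.88 to 0.97. For NAGS they were MADCAM1, HMX3, ARHGEF33, ESAM and SPNS2, at signals of 5.51 to 7.10 against array medians of 5.47 to 5.55. Their r was 0.91 to 0.92, and at least 0.86 when any 1 array was left out. These are descriptions over 8 arrays, each the best of many, and carry no test.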

How the data were processed

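Total RNA (100 ng per sample, per the labels) was amplified, biotin-labelled and hybridised. The authors deposited log2 values. Expression Console 1.3.1 of Affymetrix is named by the submitters' processing notes, with RMA, a method of background correction, normalization between arrays and probe summary. The genome build is not given in the sources used here. Of 53981 rows, 364 held no value. Gene names came from the platform table, and gene order and start windows from RefSeq (GRCh38.p14). The array's values were used as deposited, and their number limits the precision.

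All 8 arrays entered 1 limma 3.58.1 fit (lmFit, then eBayes, in R 4.3.3), which had terms for construct (FL or CD), mutant plasmid, wild-type plasmid, vector, TET1 shRNA and control shRNA. P-values were adjusted by Benjamini-Hochberg over 28946 clusters, with a threshold of 0.05. Standard errors and the residual SD of a gene were taken after eBayes, which draws each gene's spread toward that common to all clusters. The code of the fit was checked on simulated independent noise with added changes larger than any difference of the urea cycle genes. That check does not show how well differences of their size are recovered. Alternatives covered normalization, the filter, the clusters tested, the prior, the control and the arrays left out.

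The genes and lists were chosen with earlier results of these data known. Named were all members, the list gene with the largest absolute difference per comparison, the 5 profiles most like ASS1 and NAGS, and TET1. Neighbouring genes and the motifs searched were added after the values were seen.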

Additional observations from a re-analysis of the deposited data

Results flagged for a closer look

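In 4 cases a gene moved in opposite directions in the 2 settings of 1 comparison, each setting being 1 pair of arrays, so none of these differences was tested. SLC25A15 stood at 0.013 in shTET1#1 and -0.29 for the array labelled shTET1#2 against the control clone, -0.30 apart, with a residual SD of 0.16. For wild-type minus mutant, OAT stood at 0.14 with CD and -0.038 with FL, -0.18 apart with a residual SD of 0.13, and SLC25A15 at -0.077 and 0.043, 0.12 apart. For FL minus CD, NAGS stood at -0.12 between the wild-type arrays and 0.088 between the mutant arrays, 0.21 apart, with a residual SD of 0.18.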

How the results depend on the processing

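The 5 genes' differences were recomputed under the alternatives that apply to each comparison. The 2 filters, 1 cluster per symbol, the intensity trend and the 5 plasmid and vector arrays alone cannot alter a gene's difference. The others gave 115 values. Of these, 95 moved by less than 1 residual SD, the gene's SD after eBayes, and 20 by that much or more. Sign changed for 10, and 48 changed sign or moved by over 1.5 times. The NAGS difference for wild-type minus mutant stayed between 0.56 and 0.77. The ASS1 difference for plasmids minus vector lay between -1.22 and -0.79 under the alternatives that kept the vector as control. Counts of clusters past the threshold changed with the processing. The clusters tested were 28946 in the main fit, 53617 with no filter, 22988 with the stricter filter and 10797 with 1 cluster per symbol. For transfected against shRNA cells, 815 in the main fit became 1079 with median centring, 1218 with cyclic loess and 920 with 1 cluster per symbol. Other counts that moved are given next. For the clones, 1 cluster per gene symbol gave 5 in place of 0. For plasmids minus vector, centring each array on its median gave 1 in place of 0. For transfected against shRNA cells, the count was 815, against 0 with no filter (limma, 9610 at an unadjusted p under 0.05), 1589 with the stricter filter, 1883 with an intensity trend, 1879 to 1973 when 1 TET1 shRNA clone was left out, and 0 with the vector alone against the control clone (limma, 4174 unadjusted). No paired analysis was possible because no pair of groups shares 2 replicate numbers, and the match of wild-type with mutant plasmids within CD and within FL is already held by the construct term. No second cluster per symbol existed to try. With 1 array in most groups, differences near the residual SD of 0.13 to 0.21 cannot be told from the spread between arrays.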

Other observations

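The kept gene after ASS1 on its chromosome, LOC100272217, with 1 RefSeq gene between, had a profile unlike that of ASS1. It was 8.25 with TET1-FL, 7.93 with mTET1-FL, 6.61 with TET1-CD, 6.68 with mTET1-CD, 6.49 with the vector and 5.10 to 5.68 in the shRNA arrays. Its fitted FL minus CD difference was 1.44 ± 0.16 (SE), against 0.42 for ASS1, and it did not pass limma. On the other side NCS1, with 5 genes between, stood at -0.19 for FL minus CD and -0.25 ± 0.19 for plasmids minus vector. The nearest kept genes on each side of SLC25A15 lay above the vector with the plasmids, MRPS31, with 0 genes between, by 0.31 ± 0.17 and ELF1, with 4 between, by 0.56 ± 0.14, where SLC25A15 itself stood at -0.37.

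Among the 46 kept genes of the connected pathways, the vector array was the highest of the 8 for 5 genes, or 10.9%, namely ASNS, CARM1, FOXO1, PYCR1 and SLC25A2, against 15.0% of all clusters. It was the lowest for 9, or 19.6%, namely AGMAT, AZIN1, DDAH2, ODC1, PC, PRMT5, PRMT6, PYCR3 and UMPS, against 13.6% of all clusters. These counts were made after the values were seen.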
